A study of Mus musculus with 16 samples.

Results

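Matrix metalloproteinases (MMPs) are zinc proteases that cut the proteins of the extracellular matrix and many cell-surface and secreted proteins. Most are made as inactive proenzymes, which plasmin, other MMPs or furin-like convertases activate, and the tissue inhibitors of metalloproteinases (TIMPs) bind the active enzymes and block them. In intestinal tumours MMPs are known both as products of the epithelial cells and as products of the surrounding stroma. In the normal mouse small intestine, Mmp7 is known as a product of Paneth cells that activates their antimicrobial prodefensins.

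The genes described are 9 members of this system, the 6 proteases Mmp7, Mmp13, Mmp3, Mmp14, Mmp2 and Mmp9 and the 3 inhibitors Timp1, Timp2 and Timp3. They were taken as every probe set of the array whose only gene symbol is 1 of these 9, which gave 14 of 12488 probe sets and 9 of 8251 named genes. In the mouse, Mmp13, Mmp3 and Mmp7 lie on chromosome 9, Mmp14 on chromosome 14, Mmp2 on chromosome 8, Mmp9 on chromosome 2, Timp3 on chromosome 10, Timp2 on chromosome 11 and Timp1 on the X chromosome.

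The samples were epithelial cells of the mouse ileum, cut out by laser capture microdissection, and fell by their titles into carcinoma (n = 5), adenoma (n = 5) and WT (n = 6). All 16 share this tissue, the capture, 2 rounds of RNA amplification and 1 Affymetrix MG_U74Av2 array each. Genotype, strain, age, treatment, the cause of the tumours, and whether arrays came from separate animals are unknown here. The p-values therefore measure the spread between these arrays, which may in part be technical.

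Signal is the deposited intensity of a probe set on a linear scale, and 46.9, the 25th percentile of all values, was taken as a floor below which values have no order. Tests used log2 signal in 1 limma fit over the 7455 genes that lay above that floor on 5 or more of the 16 arrays, with Benjamini-Hochberg adjustment over all of them, and a gene was called at an adjusted p under 0.05. All 9 genes entered the fit, each through its probe set of highest mean. Signals are compared between arrays within a probe set and not between genes. The exception is cell type marker lists, whose signals are also summed over their genes on each array. Such a sum leans to the genes of highest signal.

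Of the 9 genes, 3 were called higher and 0 lower in carcinoma against WT, where 9.05% of all genes tested were called, 4.16% higher and 4.9% lower. In adenoma against WT, 3 were called higher and 1 lower, where 8.28% of all genes were called, 4.02% higher and 4.25% lower. Mmp7, Mmp13 and Mmp14 were the genes called higher in both comparisons, and Timp2 was the gene called lower in adenoma. Between carcinoma and adenoma 0 of the 9 were called by limma, where 0.0268% of all genes (2 of 7455) were called. Mmp3 and Timp2 had an unadjusted limma p under 0.05. The share of all genes under that unadjusted threshold is not given here, so no excess can be read from these 2. The median log2 fold change of the 9 was 0.13 in carcinoma against WT, -0.11 in adenoma against WT and 0.27 in carcinoma against adenoma, beside -0.14, -0.14 and 0.01 over all genes tested. Because the arrays are of captured tissue, more cells of a type and more RNA per cell cannot be told apart in any of these values.

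**Figure D1:**
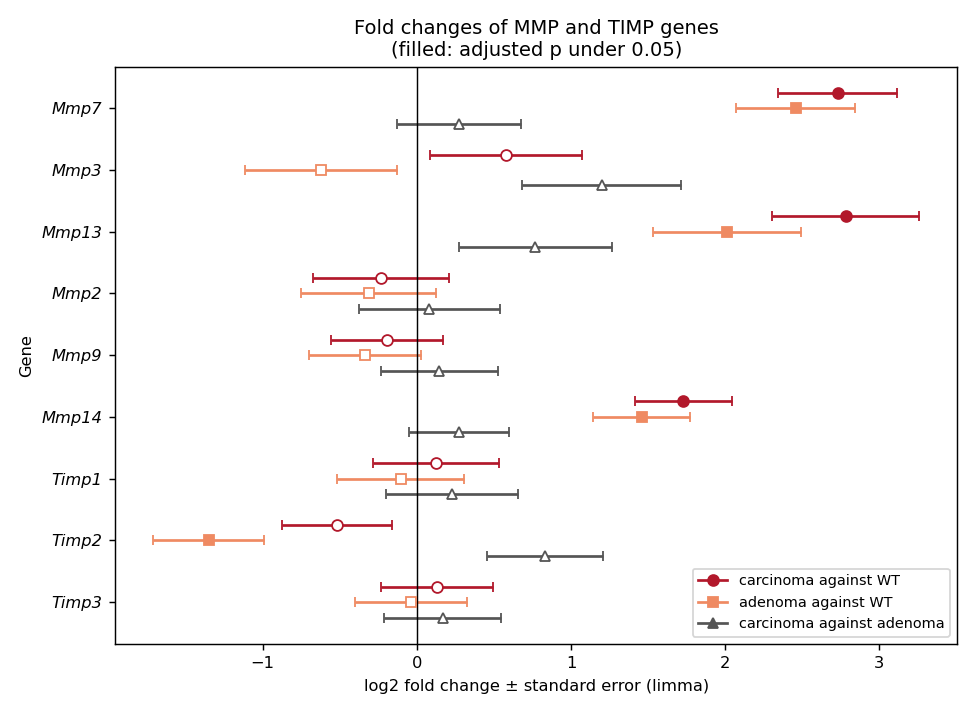
Log2 fold change of each gene with its standard error from limma, for carcinoma against WT (circles), adenoma against WT (squares) and carcinoma against adenoma (triangles), with filled symbols at an adjusted p under 0.05. Mmp7, Mmp13 and Mmp14 lie to the right in both comparisons with WT, and Timp2 lies to the left in adenoma.

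Measures that do not belong to these genes also differed between tumours and WT. The mean log2 signal of the spiked-in control transcripts was 12.23 ± 0.50 in carcinoma (SD, n = 5), 12.24 ± 0.82 in adenoma (SD, n = 5) and 13.74 ± 1.0 in WT (SD, n = 6), and the 2-sided exact permutation test gave an adjusted p of 0.0487 for each tumour group against WT. The 3' to 5' ratio of the Gapdh control probe sets (log2), a control for RNA shortening and labelling, was 5.70 ± 0.58 in carcinoma, 5.82 ± 0.24 in adenoma and 4.52 ± 0.39 in WT, with an adjusted p of 0.00649 by the exact permutation test for each tumour group. The same ratio of beta-actin ran the other way, at 6.04 ± 0.44 in carcinoma, 5.87 ± 0.30 in adenoma and 6.25 ± 0.17 in WT, and did not pass the correction (exact permutation test, adjusted p = 0.445 for carcinoma and 0.0649 for adenoma against WT). With the Gapdh ratio as a covariate, 1 of the 9 genes (Mmp13) was called in carcinoma against WT and 0 in adenoma against WT. The calls over all genes fell to 100 and 70. That ratio was 5.52 to 6.12 on adenoma arrays and 4.09 to 5.02 on WT arrays. Of the carcinoma arrays only carcinoma 4 (4.95) lay within the WT range. This covariate and the groups can thus hardly be told apart, and standard errors rose, for Mmp7 in adenoma from 0.39 to 0.67. When the spike-in signal was the covariate, Mmp7, Mmp13 and Mmp14 were called in carcinoma and Mmp7 and Mmp14 in adenoma. Over all genes 5.12% were then called in carcinoma and 5.34% in adenoma against WT. The part these measures play in the differences was not tested beyond these fits.

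Some of the genes lie in 1 run of MMP genes on chromosome 9, and promoters from that run are shown first, with that of Mmp14. The letters are the 250 bases before the RefSeq start site in GRCm38.p6, plus strand, with matches in capitals to the AP-1 motif TGANTCA, the TCF motifs CTTTGA and CTTTGT and the PEA3 (Ets) motif AGGAAG, each searched on both strands. Mmp13, Mmp7 and Mmp10 are genes of chromosome 9 whose signal was higher in both tumour groups, Mmp3 is a gene of the same run that was not called, and Mmp14 is a gene of another chromosome that was also higher. Mmp10, the stromelysin-2 gene, is not among the 9 but is needed for the comparison.
Mmp13, chr9:7272264-7272513: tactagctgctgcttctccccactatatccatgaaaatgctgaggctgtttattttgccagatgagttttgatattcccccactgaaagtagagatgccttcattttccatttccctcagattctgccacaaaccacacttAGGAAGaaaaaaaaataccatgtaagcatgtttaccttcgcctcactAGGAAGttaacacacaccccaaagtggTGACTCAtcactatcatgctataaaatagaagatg
Mmp7, chr9:7691840-7692089: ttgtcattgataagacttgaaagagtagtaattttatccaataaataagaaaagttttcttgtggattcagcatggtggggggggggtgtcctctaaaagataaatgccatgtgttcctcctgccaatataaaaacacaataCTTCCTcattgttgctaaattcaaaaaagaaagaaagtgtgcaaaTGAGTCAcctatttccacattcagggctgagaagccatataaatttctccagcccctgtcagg
Mmp10, chr9:7502092-7502341: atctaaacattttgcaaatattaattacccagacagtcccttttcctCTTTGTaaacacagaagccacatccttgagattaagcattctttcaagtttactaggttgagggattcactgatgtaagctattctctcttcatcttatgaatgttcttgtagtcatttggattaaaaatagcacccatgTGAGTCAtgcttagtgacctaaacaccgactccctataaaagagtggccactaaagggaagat
Mmp3, chr9:7445572-7445821: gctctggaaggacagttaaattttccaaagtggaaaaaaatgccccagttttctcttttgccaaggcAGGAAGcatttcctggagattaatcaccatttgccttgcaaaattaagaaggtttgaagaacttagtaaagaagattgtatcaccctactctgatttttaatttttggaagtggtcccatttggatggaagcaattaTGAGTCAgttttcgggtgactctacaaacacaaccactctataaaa
Mmp14, chr14:54431348-54431597: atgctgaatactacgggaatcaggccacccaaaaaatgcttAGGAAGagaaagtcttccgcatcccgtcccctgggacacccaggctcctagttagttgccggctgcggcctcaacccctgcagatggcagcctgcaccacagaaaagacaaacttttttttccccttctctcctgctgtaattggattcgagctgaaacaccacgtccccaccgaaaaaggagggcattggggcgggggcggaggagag

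AP-1 is the site bound by Jun and Fos proteins. Its letters were found in the promoters of Mmp13, Mmp7 and Mmp3, 3 of the 7 genes that had an entry, and in that of Mmp10. Of all 32851 promoter entries of the same length, 6.7% held them. That share counts entries and not genes, and Mmp7 has a second entry without these letters. The genes with a match also lie in the same chromosome 9 run and cannot be counted as separate from each other. The letters begin 35 bases before the start in Mmp13, 46 in Mmp3 and 63 in both Mmp7 and Mmp10. Mmp3 holds the same letters, TGAGTCA, as Mmp7 and Mmp10. It was not called in either comparison with WT, and its signal was above the floor on 2 of 5 adenoma and 5 of 6 WT arrays. Any link between these letters and the signals was not tested. A match is a description of letters in this window and says nothing of binding.

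PEA3 letters, the core bound by Ets factors, were found before Mmp7, Mmp13, Mmp3, Mmp14, Timp1 and Timp3 and before the chromosome 9 genes Mmp12 and Mmp8, and 29.5% of all entries hold them. CTTTGT was found before Timp1, Mmp10, Mmp12 and Mmp8 (16.5% of all entries) and CTTTGA in the first entry of none of these genes (13.8% of all entries). The Timp2 entry held no match. Mmp7 has a second entry that starts further along the gene, which holds 1 CTTTGA, 1 CTTTGT and 1 PEA3 match and no AP-1 match. Mmp12 also has a second entry, with AP-1 letters 44 bases before its start. No match overlapped another.

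**Figure D2:**
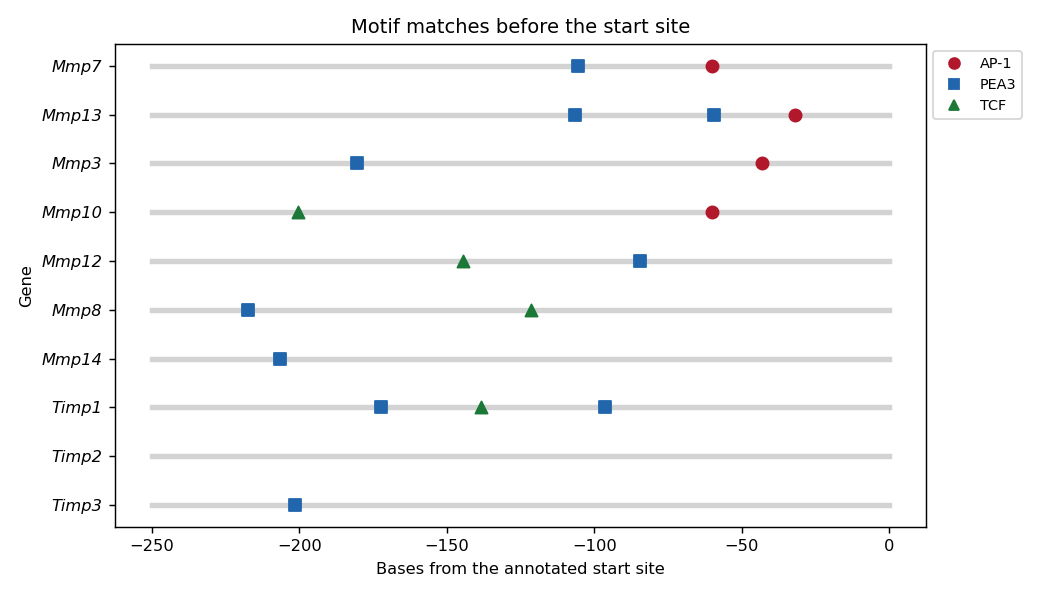
Positions of AP-1 (circles), PEA3 (squares) and TCF (triangles) letters in the 250 bases before the annotated start of each gene, first entry of each, with distance from the start in bases. AP-1 letters lie within 63 bases of the start in Mmp7, Mmp13, Mmp3 and Mmp10.

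Mmp7, matrilysin, is the smallest type of MMP, without the hemopexin domain that most others carry, and is made mainly by epithelial cells. Its signal (probe set 92917_at) was 8221, 7136, 4567, 9948 and 8625 on carcinoma arrays 1 to 5. On adenoma arrays 1 to 5 it was 3927, 6640.4, 4560.5, 8679.7 and 8649. On WT arrays 1 to 6 it was 1207, 1446, 543, 521, 1607 and 2536. Every tumour array lay above every WT array, and the tumour groups overlapped each other through most of their range. Adenoma 1, the lowest tumour array, stood above WT 6, the highest WT array.

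Mean log2 signal of Mmp7 was 12.86 ± 0.43 in carcinoma (SD, n = 5), 12.59 ± 0.53 in adenoma (SD, n = 5) and 10.13 ± 0.91 in WT (SD, n = 6). It was 6.63-fold higher in carcinoma than in WT (log2 2.73 ± 0.39 SE, limma adjusted p = 0.000125) and 5.49-fold higher in adenoma than in WT (2.46 ± 0.39, limma adjusted p = 0.000432). Between carcinoma and adenoma the difference was 0.27 ± 0.40, smaller than its standard error. The call ended with the Gapdh ratio as a covariate, which raised the standard errors. There the log2 fold change was 2.22 ± 0.63 in carcinoma (limma adjusted p = 0.102) and 1.89 ± 0.67 in adenoma (limma adjusted p = 0.298).

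Mmp7 is also 1 of the Paneth cell markers, which went both ways. Of the 8 other markers measured, 7 could be tested, and 1 was higher and 1 lower in each tumour group. Pla2g2a, a secreted phospholipase, was higher by 3.54 ± 0.47 in carcinoma and 3.13 ± 0.47 in adenoma (log2, limma adjusted p = 6.61e-05 and 0.000277). Reg3a, a secreted lectin, was lower, at -5.36 ± 0.46 in carcinoma and -3.39 ± 0.46 in adenoma (limma adjusted p = 3.15e-07 and 9.58e-05). The summed signal of the 8 was 19807 to 31576.5 in carcinoma, 20688 to 28140.5 in adenoma and 20521 to 86377 in WT, so the groups overlapped. Reg3b alone reached 73493 in WT, so this sum is largely the signal of that gene. Defa24, the defensin measured here, was above the floor on 4 of 16 arrays.

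**Figure D3:**
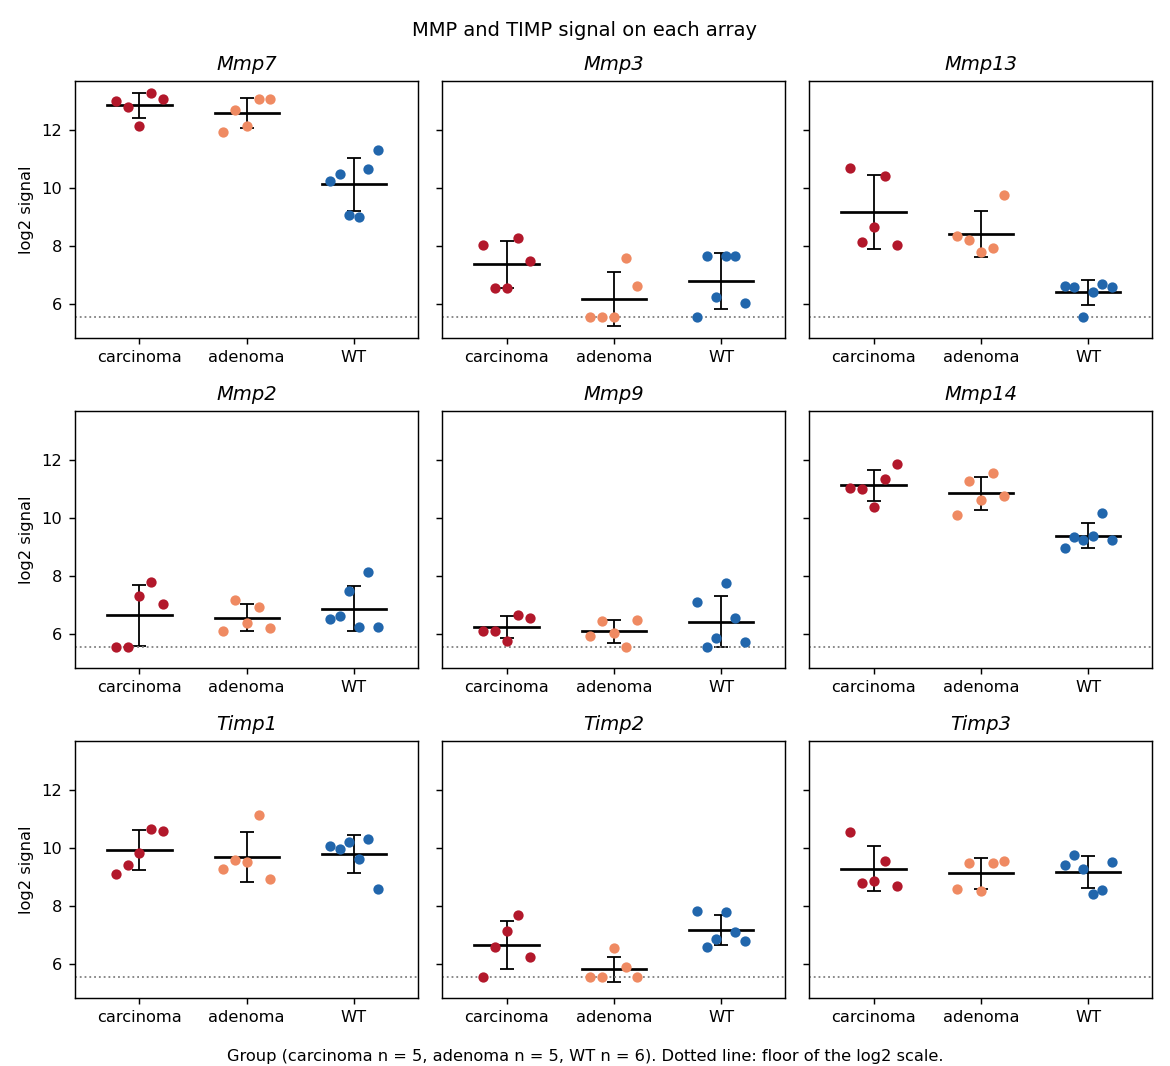
Log2 signal of the 9 genes on each array, 1 point an array, with the group mean and SD as bars and the floor as a dotted line. For Mmp7, Mmp13 and Mmp14 the tumour points sit above WT with 1 overlap, adenoma 1 and WT 5 for Mmp14, and for Timp2 the adenoma points sit below WT and overlap carcinoma.

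Mmp13, collagenase-3, cuts fibrillar collagens and is known mainly from bone, cartilage and wound stroma. Its signal (100484_at) was 1653, 282, 404, 1384 and 263 on carcinoma arrays 1 to 5. On adenoma arrays 1 to 5 it was 330.4, 301, 224, 244 and 875. On WT arrays 1 to 6 it was 98.0, 97.6, 14.6, 85.0, 103 and 96.8. All 10 tumour arrays lay above all 6 WT arrays, and 5 of the WT arrays sat within a narrow band not far above the floor, with WT 3 below the floor. Carcinoma 1, carcinoma 4 and adenoma 5 stood apart above the other tumour arrays.

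Mean log2 signal of Mmp13 was 9.19 ± 1.28 in carcinoma (SD, n = 5), 8.42 ± 0.79 in adenoma (SD, n = 5) and 6.41 ± 0.43 in WT (SD, n = 6). It was 6.87-fold higher in carcinoma than in WT (log2 2.78 ± 0.48 SE, limma adjusted p = 0.000787) and 4.03-fold higher in adenoma than in WT (2.01 ± 0.48, limma adjusted p = 0.0127). The difference between carcinoma and adenoma, 0.77 ± 0.50, was not called. Without carcinoma 1 and carcinoma 4, the log2 fold change in carcinoma against WT was 1.87 and that against adenoma was -0.14. These 2 arrays were chosen for their high Mmp13 signal, so lower values follow from the choice and are no test. Adenoma 5, the highest adenoma array, was kept in that fit. The call in adenoma ended with the spike-in covariate (2.07 ± 0.64, limma adjusted p = 0.0690) and with the Gapdh covariate (2.87 ± 0.81, limma adjusted p = 0.132). It also ended in the fit that left out WT 1, 2, 4 and 5, which had the highest spike-in signal (2.35 ± 0.74, limma adjusted p = 0.130). Only WT 3, which lay below the floor, and WT 6 then stood for WT, and the standard error was larger than the 0.48 of the main fit.

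Mmp3, stromelysin-1, cuts proteoglycans, laminin and fibronectin and activates other MMP proenzymes. Its signal (98833_at) was 263, 93.6, 94.1, 309 and 178 on carcinoma arrays 1 to 5. On adenoma arrays 1 to 5 it was 30.5, 5.9, 45.6, 193 and 100.3. On WT arrays 1 to 6 it was 15.5, 202, 75.6, 203, 202 and 65.6. Adenoma 1, 2 and 3 and WT 1 lay below the floor, and the 3 groups overlapped.

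Mean log2 signal of Mmp3 was 7.38 ± 0.81 in carcinoma (SD, n = 5), 6.18 ± 0.92 in adenoma (SD, n = 5) and 6.80 ± 0.97 in WT (SD, n = 6). It was not called in carcinoma against WT (0.58 ± 0.49, limma adjusted p = 0.504) or in adenoma against WT (-0.62 ± 0.49, limma adjusted p = 0.471). Carcinoma against adenoma gave its largest difference, 1.20 ± 0.51, with an unadjusted limma p of 0.0313 and an adjusted p of 1.

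Mmp14, the membrane-type protease MT1-MMP, sits on the cell surface, cuts collagen there and activates the Mmp2 proenzyme in a complex that includes Timp2. Its signal (160118_at) was 2111, 2073, 1339, 2622 and 3748 on carcinoma arrays 1 to 5. On adenoma arrays 1 to 5 it was 1104, 2479, 1570, 2995 and 1744. On WT arrays 1 to 6 it was 503, 656, 617, 670.2, 1176 and 609. Every carcinoma array lay above every WT array, while adenoma 1 lay just below WT 5, the highest of its group, and the other 4 adenoma arrays lay above all WT arrays.

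Mean log2 signal of Mmp14 was 11.14 ± 0.54 in carcinoma (SD, n = 5), 10.86 ± 0.57 in adenoma (SD, n = 5) and 9.41 ± 0.42 in WT (SD, n = 6). It was 3.31-fold higher in carcinoma than in WT (log2 1.73 ± 0.31 SE, limma adjusted p = 0.00128) and 2.74-fold higher in adenoma than in WT (1.46 ± 0.31, limma adjusted p = 0.00610). Carcinoma and adenoma differed by 0.27 ± 0.33, less than the standard error. The call ended with the Gapdh ratio as a covariate in both tumour groups (1.09 ± 0.48 in carcinoma, limma adjusted p = 0.375, and 0.75 ± 0.51 in adenoma, limma adjusted p = 0.667). It also ended in adenoma without the same 4 WT arrays (1.60 ± 0.42, limma adjusted p = 0.0671), where only WT 3 and WT 6 were left.

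Mmp2 and Mmp9, the gelatinases, cut denatured collagen and the type IV collagen of basement membranes, and are known chiefly from fibroblasts and from white blood cells. Mmp2 signal (161509_at) was 24.1, 42.1, 160.2, 223 and 132 on carcinoma arrays 1 to 5. On adenoma arrays it was 69.8, 145, 84.3, 122 and 75.0. On WT arrays 1 to 6 it was 91.5, 99.5, 181, 76.0, 285 and 76.7. Carcinoma 1 and 2 lay below the floor and the groups overlapped. The log2 difference from WT was -0.23 ± 0.44 in carcinoma (limma adjusted p = 0.779) and -0.31 ± 0.44 in adenoma (limma adjusted p = 0.707), and carcinoma differed from adenoma by 0.08 ± 0.46.

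Mmp9 signal (162369_f_at) was 69.2, 68.9, 54.4, 103 and 93.7 on carcinoma arrays 1 to 5. On adenoma arrays it was 60.9, 89.0, 65.7, 21.7 and 90.4, and on WT arrays 1 to 6 it was 138, 29.9, 58.4, 220.4, 95.7 and 53.2. The values of both tumour groups lay within the range of WT, apart from adenoma 4, which like WT 2 lay below the floor. The log2 difference from WT was -0.19 ± 0.36 in carcinoma (limma adjusted p = 0.778) and -0.34 ± 0.36 in adenoma (limma adjusted p = 0.603). The suffix of this probe set marks it as one that may also match related sequences.

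The inhibitors gave 1 call among 3 genes. Timp1, a secreted inhibitor of most MMPs, had a signal (101464_at) of 552, 696, 914, 1621 and 1543 on carcinoma arrays 1 to 5. On adenoma arrays it was 622, 777, 733, 2285 and 489, and on WT arrays 1 to 6 it was 1094, 997, 1191, 795, 1286 and 384. The groups overlapped, with adenoma 4 the highest array and WT 6 the lowest. The log2 difference from WT was 0.12 ± 0.41 in carcinoma (limma adjusted p = 0.883) and -0.11 ± 0.41 in adenoma (limma adjusted p = 0.904).

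Timp2, which inhibits MMPs and also joins Mmp14 in activating the Mmp2 proenzyme, had a signal (93507_at) of 39.5, 97.9, 143, 207 and 76.5 on carcinoma arrays 1 to 5. On adenoma arrays it was 28.4, 17.0, 95.0, 59.6 and 38.8, and on WT arrays 1 to 6 it was 228, 97.9, 118, 223, 139 and 112. All 5 adenoma arrays lay below all 6 WT arrays, by a small margin between adenoma 3 and WT 2, and 3 adenoma arrays and carcinoma 1 lay below the floor. Mean log2 signal was 6.66 ± 0.82 in carcinoma (SD, n = 5), 5.82 ± 0.44 in adenoma (SD, n = 5) and 7.18 ± 0.52 in WT (SD, n = 6).

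In adenoma Timp2 was 2.55-fold lower than in WT (log2 -1.35 ± 0.36 SE, limma adjusted p = 0.0246), with 3 of the 5 adenoma arrays set to the floor. In carcinoma the difference from WT was -0.52 ± 0.36 (limma adjusted p = 0.393). Carcinoma against adenoma gave 0.83 ± 0.37, with an unadjusted limma p of 0.0388 and an adjusted p of 1, so a difference between the tumour groups was not shown. The adenoma call held in 19 of 31 alternatives: it ended without any 1 of WT 1, WT 4, adenoma 1, adenoma 2 or adenoma 5 (log2 -1.28 to -1.22, limma adjusted p from 0.0550 to 0.0677), and with the floor at the 40th percentile or the mean of its probe sets it shrank to -0.39 and -0.35 (limma adjusted p = 0.327 and 0.269). It also ended with quantile normalization (-1.07, limma adjusted p = 0.0723), aligned medians (-1.15, 0.0526), the Gapdh covariate (-0.62, 0.774), the spike-in covariate (-1.26, 0.142) and without WT 1, 2, 4 and 5 (-1.02, 0.383).

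Timp3, which is bound to the extracellular matrix and also inhibits ADAM proteases, had a signal (160519_at) of 1498, 451, 472, 758 and 414 on carcinoma arrays 1 to 5. On adenoma arrays it was 385, 725, 367, 713 and 762, and on WT arrays 1 to 6 it was 692, 881, 628, 345, 375 and 746. Carcinoma 1 was the highest array and the rest of the groups overlapped. The log2 difference from WT was 0.13 ± 0.36 in carcinoma (limma adjusted p = 0.857) and -0.04 ± 0.36 in adenoma (limma adjusted p = 0.961), both smaller than the standard error.

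Read by the arrays themselves, 3 of the 9 genes in carcinoma (Mmp7, Mmp13 and Mmp14) had all carcinoma arrays above all WT arrays, and 0 had them below, where 6.28% of all genes did not overlap, 3.13% above and 3.15% below. In adenoma, Mmp7 and Mmp13 lay wholly above WT and Timp2 wholly below, where 5.79% of all genes did not overlap, 3.06% above and 2.74% below. Between carcinoma and adenoma 0 of the 9 did not overlap, where the share of all genes was 0.537%, 0.161% above and 0.376% below.

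The design of the array gives 5 of the 9 genes 1 probe set and the other 4 between them 9, which do not all read alike. Of the 14 probe sets, 10 passed the filter and 4 did not. Mmp2 95663_at was above the floor on 4 of 16 arrays, and Mmp9 99957_at on 2. Timp2 160116_at was above it on 1 array and 161515_i_at on 2, adenoma 2 (78.6) and adenoma 5 (67.2), arrays on which the Timp2 probe set used here was below the floor. The lower Timp2 signal in adenoma thus rests on 1 of its 3 probe sets.

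The second Timp1 probe set, 162107_r_at, was above the floor on carcinoma 1 (47.0) and adenoma 1 (51.1), both by little, and on WT 2, 4 and 5. Fitted over all 9315 probe sets that passed the filter, its difference from WT was -0.61 ± 0.29 in carcinoma (limma adjusted p = 0.220) and -0.59 ± 0.29 in adenoma (limma adjusted p = 0.246). In that fit 8.42% of all probe sets were called in carcinoma against WT, 7.72% in adenoma against WT and 0.0429% in carcinoma against adenoma, and the called genes among the 9 were those of the fit by gene.

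**Figure D4:**
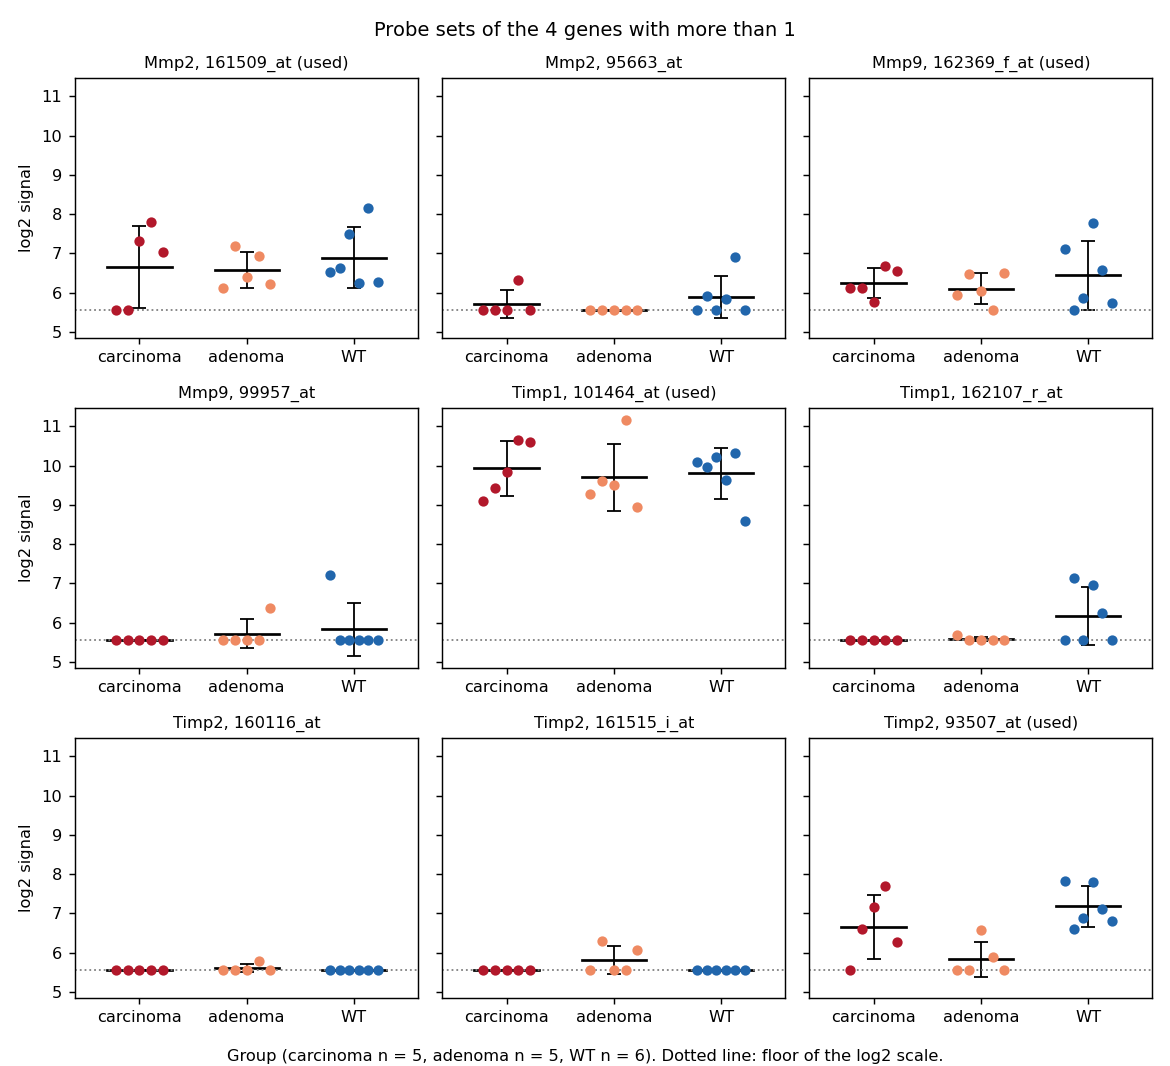
Log2 signal of the 9 probe sets of Mmp2, Mmp9, Timp1 and Timp2 on each array, with the group mean and SD as bars and the floor as a dotted line. The probe sets not used lie at or near the floor on most arrays, and the Timp2 probe set 161515_i_at rises above it on 2 adenoma arrays.

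Mmp13, Mmp3 and Mmp7 belong to a run of 10 neighbouring protein-coding genes on chromosome 9 that are all MMPs, in the order Mmp13, Mmp12, Mmp1b, Mmp3, Mmp1a, Mmp10, Mmp8, Mmp27, Mmp20 and Mmp7. The array measured 6 of them and 5 passed the filter. Mmp10, which like Mmp3 cuts matrix proteins and activates other proenzymes, had a signal of 1177, 396, 364, 1022 and 368 on carcinoma arrays 1 to 5. On adenoma arrays it was 295, 374, 301, 788 and 398, and on WT arrays 1 to 6 it was 93.6, 128, 93.8, 135, 77.2 and 24.0. As for Mmp7 and Mmp13, every tumour array lay above every WT array.

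Mmp10 was 6.37-fold higher in carcinoma than in WT (log2 2.67 ± 0.38 SE, limma adjusted p = 0.000135) and 4.44-fold higher in adenoma than in WT (2.15 ± 0.38, limma adjusted p = 0.00130). Mmp12, the macrophage metalloelastase (95339_r_at), was not called in carcinoma (1.03 ± 0.56, limma adjusted p = 0.274) or in adenoma (0.62 ± 0.56, limma adjusted p = 0.530). Its other probe set, 95338_s_at, leaned the other way, with mean log2 signal 5.95 in carcinoma, 6.06 in adenoma and 6.51 in WT. Mmp8, the neutrophil collagenase, was above the floor on 3 WT arrays and on no tumour array. So 3 genes of the run were called higher in both tumour groups, at its ends and within it, with Mmp3, Mmp12 and Mmp8 between them not called or not tested.

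**Figure D5:**
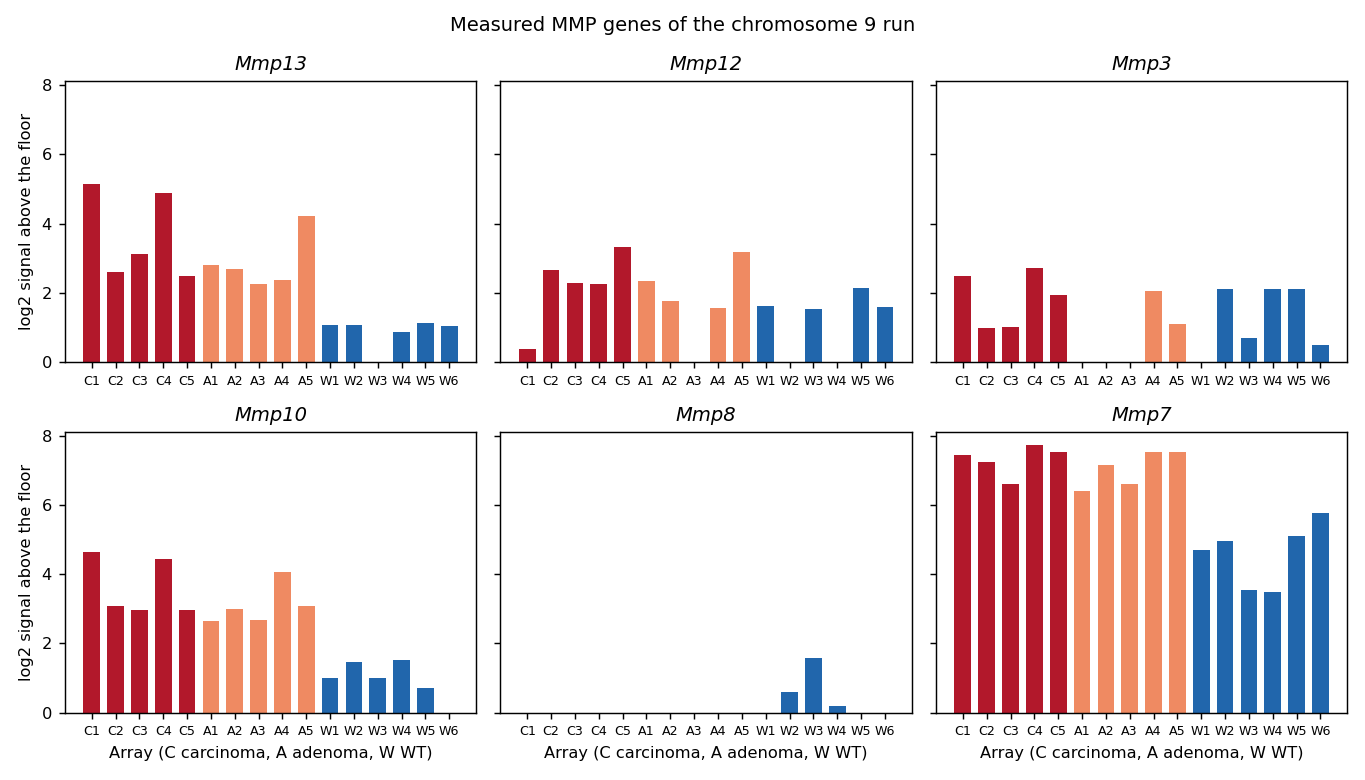
Log2 signal above the floor of the 6 measured MMP genes of the chromosome 9 run, in genome order, with 1 bar an array for carcinoma (C), adenoma (A) and WT (W). Mmp13, Mmp10 and Mmp7 are higher in all tumour arrays than in all WT arrays, and carcinoma 1 and 4 are high for Mmp13, Mmp3 and Mmp10.

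Within carcinoma, arrays 1 and 4 stood above the other 3 for Mmp13, Mmp3, Timp3 and Mmp10. Among the 9 genes this held for 3, where it held for 5.85% of all genes tested. These 2 arrays were singled out for their Mmp13 signal after the values were seen, so Mmp13 meets the split by choice. For Mmp13 the lower of the 2 was 3.43-fold above the highest of the other 3 on the floored scale, and for Mmp10 it was 2.58-fold, while 0.188% of all genes (14) had a gap of at least 2-fold. Mmp7 and Mmp14 did not follow this split: carcinoma 5 was among the 2 highest for both.

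Of the 17 other MMP genes looked for, 7 were measured and 4 passed the filter, and Mmp10 was the 1 called, higher in both tumour groups. The median log2 fold change of the 4 was 0.52 in carcinoma and 0.06 in adenoma. Mmp11, known from stromal cells of carcinomas, gave -0.47 ± 0.46 in carcinoma and -0.50 ± 0.46 in adenoma, and Mmp17, a membrane-type MMP, 0.01 ± 0.40 and -0.51 ± 0.40. Mmp16 was above the floor on 1 array and Mmp24 on 0 of 16. Of 5 other inhibitors, 4 were measured and 3 tested, and 0 were called by limma: in carcinoma Reck gave -0.30 ± 0.42, Pzp -0.42 ± 0.48 and Tfpi2 0.42 ± 0.44. Tfpi2 in carcinoma against adenoma, 0.96 ± 0.46, was the 1 value of these 3 genes with an unadjusted limma p under 0.05, at 0.0493. It was not called after adjustment, and the share of all genes under that unadjusted threshold is not given here.

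Plasmin is a known activator of MMP proenzymes, and its formation depends on plasminogen activators. Of 18 genes for activators of proenzymes, 17 were measured and 15 tested, of which 2 were higher and 1 lower in carcinoma, and 2 higher and 0 lower in adenoma. Plat, tissue plasminogen activator, was 21.6-fold higher in carcinoma (log2 4.43 ± 0.50, limma adjusted p = 9.29e-06) and 24.8-fold higher in adenoma (4.63 ± 0.50, limma adjusted p = 5.61e-06). Plaur, the urokinase receptor, was higher by 1.79 ± 0.45 in carcinoma (limma adjusted p = 0.0151) and 2.17 ± 0.45 in adenoma (limma adjusted p = 0.00442). Pcsk5, a furin-like convertase, fell by 1.06 ± 0.31 in carcinoma (limma adjusted p = 0.0362). The medians of the list, -0.04 and -0.40, lay near and below the -0.14 of all genes.

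Of 24 regulators of MMP transcription, 20 were measured and 19 tested, and 3 were higher and 0 lower in each tumour group. For this and the other lists, the share of all genes tested was 4.16% higher and 4.9% lower in carcinoma. In adenoma it was 4.02% higher and 4.25% lower. The 3 regulators were the AP-1 genes Jun and Fos and the Ets factor Ets2. Whether they act on the MMP genes was not tested. Jun was higher by 1.95 ± 0.40 in carcinoma (limma adjusted p = 0.00354) and 2.34 ± 0.40 in adenoma (limma adjusted p = 0.000871), and all tumour arrays lay above all WT arrays. Fos was higher by 1.81 ± 0.41 in carcinoma (limma adjusted p = 0.00897) and 1.56 ± 0.41 in adenoma (limma adjusted p = 0.0247), and Ets2 by 1.46 ± 0.36 in each (limma adjusted p = 0.0139 and 0.0154). The median of the list was 0.52 in carcinoma and 0.31 in adenoma.

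Of 24 substrates and cell-surface anchors of MMPs, 21 were measured and tested, with 5 higher and 0 lower in carcinoma and 4 higher and 0 lower in adenoma. In carcinoma the 4 of smallest p were Col1a1, a chain of fibrillar collagen I (1.41 ± 0.23), Col4a1, a chain of basement membrane collagen (1.48 ± 0.28), the proteoglycan syndecan-1, Sdc1 (1.07 ± 0.23), and fibronectin, Fn1 (1.40 ± 0.31), with limma adjusted p from 0.000540 to 0.00711. In adenoma they were Col4a1 (1.53 ± 0.28), Sdc1 (1.03 ± 0.23), Fn1 (1.23 ± 0.31) and the growth factor binding protein Igfbp3 (1.10 ± 0.30), with limma adjusted p from 0.00161 to 0.0283. The median of the list was 0.47 in carcinoma and 0.38 in adenoma.

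ADAM and ADAMTS proteases, relatives of the MMPs that include the enzymes which shed membrane proteins, went both ways. Of 20, 12 were measured and 10 tested, of which 3 were higher and 2 lower in carcinoma and 1 higher and 2 lower in adenoma. Adam8 was higher by 1.52 ± 0.31 in carcinoma (limma adjusted p = 0.00359) and 2.40 ± 0.31 in adenoma (limma adjusted p = 6.05e-05). Adamdec1, known from intestinal macrophages and fibroblasts, was lower, at -2.03 ± 0.57 in carcinoma and -2.94 ± 0.57 in adenoma (limma adjusted p = 0.0294 and 0.00264), and so was Adam28, at -1.43 ± 0.36 in carcinoma and -1.64 ± 0.36 in adenoma. No gene of these lists was called in carcinoma against adenoma by limma.

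The 3 tested genes outside the 9 whose profile over the 16 arrays was most like that of each called gene, by the root mean square difference of log2 signals centred on each gene's mean, are given as a description. For Mmp7, whose own SD over arrays was 1.40, they were Myl7 (0.55), Cd24a (0.57) and Rbp4 (0.59). For Mmp13, with an SD of 1.43, they were Mmp10 (0.71), Tspan12 (0.73) and the coagulation factor gene F5 (0.74). Of these only Mmp10 belongs to the run on chromosome 9, and its value was nearly that of the other genes. For Mmp14, with an SD of 0.90, they were Emp3 (0.33), Rab11fip5 (0.36) and Col9a3 (0.36), and for Timp2, with an SD of 0.79, Smarcad1 (0.41), Bmyc (0.47) and Wfdc12 (0.49).

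The captured tissue can hold cells other than epithelium, and marker lists of these were read beside the results. Their sums lean to a few bright genes, such as Dcn for fibroblasts (up to 11182.5 in carcinoma) and Lyz2 for macrophages (up to 12868 in carcinoma). All 12 epithelial markers were measured and above the floor in at least 12 of 16 arrays, and 1 was lower in each tumour group (Krt20 in carcinoma, Cdx1 in adenoma). Of 20 fibroblast markers, 18 were tested, with 3 higher and 2 lower in carcinoma and 0 higher and 2 lower in adenoma, and their summed signal was 12681 to 21624.5 in carcinoma, 9506 to 14105 in adenoma and 9115 to 15646 in WT. Of 13 macrophage markers measured, 10 were tested and 0 called by limma, with sums of 9542 to 15674 in carcinoma, 6842 to 13703 in adenoma and 5042 to 19944.5 in WT and with Itgam and Marco at the floor on every array. Mast cell markers, 8 of 10 tested, were higher for 3 in each tumour group, with median log2 fold changes of 0.26 in carcinoma and 1.08 in adenoma. Their sums were 2400 to 4554 in carcinoma, 4123 to 9128 in adenoma and 1214 to 2327 in WT, so all tumour sums lay above all WT sums. In carcinoma this rested on Mcpt1 (889 to 1796, WT 16.4 to 370) and Mcpt2 (548 to 1564, WT 20.6 to 138). For every other marker of the list, carcinoma overlapped WT.

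Endothelial markers, 10 tested, were higher for 1 in carcinoma (Sox17) and 2 in adenoma (Sox17 and Cdh5), with sums of 4566 to 12252 in carcinoma, 5989 to 12620 in adenoma and 3427 to 6606 in WT. These sums lean to Eng, which was not called (up to 8908 in carcinoma, 8069 in adenoma and 3972 in WT). For every marker of the list other than Sox17 and Cdh5, both tumour groups overlapped WT. Neutrophil markers, 9 of 12 tested, gave 1 higher and 1 lower in carcinoma and 1 higher and 2 lower in adenoma, with sums of 1747 to 3136.5 in carcinoma, 2037 to 3009 in adenoma and 1416 to 2922 in WT. Smooth muscle markers, 7 of 8 tested, gave 0 higher and 2 lower in carcinoma and 1 higher and 2 lower in adenoma, with sums of 1472 to 2973 in carcinoma, 2504 to 6867 in adenoma and 4238 to 7234.5 in WT and with Smtn at the floor on every array. The part of these cells in the values of Mmp7, Mmp13, Mmp14 and Timp2 was not tested.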

How the data were processed

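Ileal epithelial cells of mice were captured by laser and their RNA was amplified in 2 rounds and hybridised to Affymetrix MG_U74Av2 arrays, per the labels' descriptions. The authors deposited 1 linear intensity per array and probe set, for 12488 probe sets, and what software made these is not stated in the labels. The mean of each array, trimmed by 2% at each end, lay between 500.3 and 500.4, so no further scaling was applied. Median signal ran from 126.8 to 234.2, and the number of arrays limits the precision. Groups and replicate numbers came from the sample titles.

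Symbols came from the platform annotation, which gave 10833 probe sets 1 symbol and 396 several, while 1193 were not listed. No test included the 66 control probe sets. Values were floored at 46.9 and log2 transformed, and limma 3.58.1 (R 4.3.3) was fitted to all 16 arrays, with the 3 groups sharing 1 estimate of the spread. The fit was also run on simulated data with independent random noise. Those data held no group difference in the spike-in signal or the Gapdh ratio, so the run could not show what such differences do. Promoter letters came from the RefSeq table of GRCm38.p6, which had entries for 7 of the 9 genes.

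The genes and lists were chosen with earlier results of these data known. All 9 genes are named, with, of each list, at most the 4 called genes of smallest p per comparison. The alternatives were other scalings, floors, filters and probe set rules, a replicate block, array weights, 2 control measures as covariates, and fits without single arrays or sets of arrays.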

Additional observations from a re-analysis of the deposited data

Results flagged for a closer look

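A sample far from the others of its group was looked for in 27 groups of arrays (9 genes in 3 groups), and 3 were found, where chance alone marks about 1 group in 20. The value is the gap to the nearest array as a share of the whole range of the group on the log2 scale. For Mmp13, adenoma 5 was the highest adenoma array, with a gap of 0.715 of the range. For Mmp13 as well, WT 3 was the lowest WT array, with a gap of 0.753, and it lay at the floor. For Mmp14, WT 5 was the highest WT array, with a gap of 0.661, and it is the array that overlaps adenoma. Mmp7, Mmp13 and Mmp14 were still called higher in both tumour groups without any 1 of these arrays.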

How the results depend on the processing

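Over 31 alternatives in adenoma and 32 in carcinoma against WT, Mmp7 was called in 30 and 31, Mmp13 in 28 and 32, Mmp14 in 29 and 31, and Timp2 in adenoma in 19. Leaving out each array in turn ended no call of Mmp7, Mmp13 or Mmp14. With the Gapdh covariate the count of called members was 1 in carcinoma and 0 in adenoma, where 1.34% and 0.939% of all genes were called. In adenoma it was 2 with the spike-in covariate, where 5.34% of all genes were called. In adenoma it was 1 (Mmp7) without WT 1, 2, 4 and 5, the arrays of high spike-in signal, in a fit that kept only WT 3 and WT 6. There the calls over all genes fell to 217 in carcinoma and 196 in adenoma. The cause was not tested. The labels do not say whether equal replicate numbers pair the arrays. Correlations between same-numbered arrays ran from -0.27 to 0.40 and do not settle it. With the replicate block the counts were 3 in carcinoma, 4 in adenoma and 0 between them, the same genes. Over all genes 11.3%, 9.77% and 0.0268% were then called. Without carcinoma 1 and 4, chosen after seeing the data, 309 genes in all were called in carcinoma against WT. Aligning array medians moved the median of all genes to 0.15 in carcinoma and 0.12 in adenoma, in place of -0.14, and quantile normalization moved it to -0.0058 and -0.016.

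Fold changes that turned sign all belonged to genes that were not called in that comparison, and none was called after it. In carcinoma against WT, Mmp2 became 0.019 with quantile normalization, 0.0052 with a floor at the 40th percentile, 0.13 with the Gapdh covariate and 0.22 with the spike-in covariate. Mmp9 became 0.16 with quantile normalization, 0.064 with medians aligned, 0.055 with the spike-in covariate and 0.44 without the 4 WT arrays. Timp1 became -0.24 with the mean of the probe sets and -0.12 with the replicate block, Timp2 0.14 with the Gapdh covariate, and Timp3 -0.075 with array weights, -0.12 without the 4 WT arrays and -0.37 without carcinoma 1 and 4.

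In adenoma against WT, Mmp2 became 0.090 with quantile normalization, 0.087 with the Gapdh covariate and 0.14 with the spike-in covariate, Mmp3 0.28 with the spike-in covariate and 0.041 without the 4 WT arrays, and Mmp9 0.018 with quantile normalization and 0.30 without the 4 WT arrays. Timp1 became 0.19 with medians aligned, 0.39 with the Gapdh covariate, 0.80 with the spike-in covariate and 0.30 without the 4 WT arrays. Timp3 became 0.040 with quantile normalization, 0.26 with medians aligned, 0.034 with the replicate block and 0.49 with the Gapdh covariate. In carcinoma against adenoma, Mmp2 became -0.071 with quantile normalization, -0.022 with medians aligned and -0.14 with the floor at the 10th percentile, and Mmp9 -0.010 with the mean of the probe sets and -0.0098 with array weights. Without carcinoma 1 and 4, which were chosen for their high Mmp13 signal, Mmp13 became -0.14 and Timp3 -0.33.

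Leaving out single arrays moved Mmp2 between -0.52 and 0.043, Mmp9 between -0.37 and 0.076, Timp1 between -0.12 and 0.33 and Timp3 between -0.18 and 0.28 in carcinoma against WT. It moved Timp1 between -0.47 and 0.085 and Timp3 between -0.19 and 0.11 in adenoma against WT, and Mmp2 between -0.20 and 0.36 and Timp3 between -0.14 and 0.32 in carcinoma against adenoma. Mmp9 gave no value with the floor at the 40th percentile or the filter at 2 times the floor. Signals near the floor limit what can be read from Mmp2, Mmp3, Mmp9 and Timp2.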

Other observations

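The genes that share the carcinoma split of Mmp13 and Mmp10 were listed after the split was seen, as a description. In 14 genes the lower of carcinoma 1 and carcinoma 4 stood at least 2-fold above the highest of the other 3 carcinoma arrays. Mmp13 had the largest gap of the 14, at 3.43-fold, followed by Colq, the collagen-tailed anchor of acetylcholinesterase, at 2.99-fold and Igkv6-23, an immunoglobulin segment, at 2.69-fold. Mmp10 had a gap of 2.58-fold. The list also held Scd1, a fatty acid desaturase (2.29-fold), Skil, an inhibitor of TGF-beta signalling (2.13-fold), Serpinb5, the serpin maspin (2.12-fold), and Ptgs2, the inducible cyclooxygenase (2.02-fold). No test was made of this list, because the 2 arrays were chosen for their Mmp13 signal.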
